A study of Mus musculus with 15 samples.

Results

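The genes described here encode subunits of respiratory complexes I, II and III and of ATP synthase, often called complex V. They were taken from the gene table by symbol: names starting Nduf followed by a, b, c, s or v and a digit, Sdha to Sdhd, names starting Uqcr, Cyc1, names starting Atp5, and the mitochondrially encoded mt-Nd, mt-Cytb and mt-Atp genes, without assembly factors named Ndufaf and without pseudogenes. The rule used no measured value. It gave 77 genes of the 22165 in the table. Of these, 67 are nuclear (37 of complex I, 4 of complex II, 9 of complex III and 17 of ATP synthase) and 10 are encoded in mitochondrial DNA (7 of complex I, 1 of complex III and 2 of ATP synthase).

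Complexes I and II pass electrons from NADH and succinate to ubiquinone, complex III hands them to cytochrome c, complexes I and III pump protons across the inner mitochondrial membrane, and ATP synthase uses the returning protons to make ATP. Complex II is encoded wholly in the nucleus, while complexes I, III and ATP synthase combine nuclear subunits with subunits that are transcribed and translated inside the organelle. The mitochondrial messages are cut from long shared transcripts. Dendritic cells are known to use both glycolysis and oxidative phosphorylation, with a balance that shifts with subset and activation, and the kinase LKB1 acts upstream of AMPK, a sensor of cellular energy.

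The cells were thymic dendritic cells of C57BL/6 mice, male and female. The KO mice were Itgax-cre Stk11 fl/fl, in which Cre driven by the CD11c gene Itgax deletes the gene of LKB1, so the deletion follows CD11c expression and is not limited to 1 subset. The comparison mice were WT. Mice of both genotypes, 8 to 12 weeks old, had been injected under the skin with B16 melanoma cells that secrete Flt3L, the growth factor of dendritic cells, and their thymi were taken 9 to 12 days later. Plasmacytoid dendritic cells (pDC; Siglec-H+, CD11c intermediate), type 2 conventional dendritic cells (cDC2; CD11b+) and type 1 conventional dendritic cells (cDC1; CD8a+) were sorted. There were 15 libraries: 3 pDC KO, 3 pDC WT, 3 cDC2 KO, 2 cDC2 WT, 2 cDC1 KO and 2 cDC1 WT. The labels do not say whether replicates came from separate mice or pools, so p-values measure the spread between these samples, which may be technical.

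Libraries were tags from the 3′ end of polyadenylated RNA and held 3928164 to 12142712 counts. Levels are given as CPM, a gene's count relative to the scaled total of its library. A gene was said to differ where edgeR's quasi-likelihood test gave an adjusted p below 0.05 (two-sided, Benjamini-Hochberg over 11746 tested genes), and log2 differences carry their standard error. Summed pDC markers stood at 35190 to 55343 CPM in pDC and at no more than 1875 CPM elsewhere, and summed cDC1 markers stood at 6995 to 9575 CPM in pDC and 1965 to 3860 CPM in cDC2, against 6949 to 10945 CPM in cDC1. Summed cDC2 markers stood at 693 to 856 CPM in pDC, which overlapped the 701 to 989 CPM in cDC2, against 302 to 406 CPM in cDC1. Some markers, named after their values were seen, differed between cDC1 KO and cDC1 WT. Itgam, the gene of CD11b, was higher in KO (log2 difference 3.43 ± 0.57, adjusted p = 0.0431), beside 0.0255% of all tested genes. Sirpa was higher (1.09 ± 0.33, 0.860) and Cd8a lower (-0.99 ± 0.34, 0.981) without passing. Of the other cDC2 markers, Irf4 (0.67 ± 0.95), Clec10a (0.51 ± 0.50) and Clec4a4 (0.34 ± 1.76) were positive, and Cd209a, Mgl2 and Clec12a negative. Of the other cDC1 markers, Itgae, Irf8, Clec9a, Naaa, Wdfy4, Tlr3 and Cadm1 were negative (-0.89 to -0.31). Xcr1 (0.16 ± 0.63) and Batf3 (0.09 ± 0.87) were positive. None of these other markers passed the threshold. Of 10 thymocyte and T cell markers in the table, 10 reached 1 CPM in pDC, 9 in cDC2 and 9 in cDC1, with summed levels of 373 to 522 CPM in pDC, 44.3 to 118 CPM in cDC2 and 92.3 to 210 CPM in cDC1. Their part in the results was not tested. Stk11 averaged 37.8 ± 5.25 CPM in pDC KO against 51.4 ± 13.7 CPM in pDC WT (SD, n = 3 each), 31.2 ± 4.29 CPM in cDC2 KO (n = 3) against 34.6 ± 0.501 CPM in cDC2 WT (n = 2), and 24.5 ± 8.65 CPM in cDC1 KO against 44.9 ± 13.2 CPM in cDC1 WT (n = 2 each). It passed the threshold in none of these; the labels do not place the deleted exons, and a 3′ tag outside them does not check the deletion. Both cDC2 WT libraries stood apart from the cDC2 KO libraries. At equal depth they held 10840 and 11359 genes against 12430 to 12760 in cDC2 KO. The length of a gene's transcript went with its level at a Spearman correlation across genes of 0.176 and 0.152 against -0.148 to -0.0475 in cDC2 KO. The pDC libraries were more like cDC2 WT in the number of genes, with 10846 to 11206 in pDC KO and 10978 to 11225 in pDC WT. Their correlations with length were -0.0314 to 0.0798 in pDC KO and 0.0377 to 0.180 in pDC WT.

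Of the 77 genes, 75 entered the tests, 65 of them nuclear. Ndufa4l2, a paralogue of Ndufa4 known as a hypoxia-induced gene, had 0 counts in all 15 libraries, which allows up to 0.0283 CPM over the pooled libraries (3 counts, counting error only). Uqcrc1, which encodes core protein 1 of complex III, had 37 counts in all. It was at 0 in all 6 pDC libraries, which allows up to 0.0658 CPM over them, again for counting error only. A count of 0 tags does not show that the message was absent from pDC. Uqcrc1 stood at 0.571, 0.0798 and 0.145 CPM in cDC2 KO, 0.243 and 0.151 CPM in cDC2 WT, 1.96 and 0.729 CPM in cDC1 KO and 0.704 and 1.09 CPM in cDC1 WT. Uqcrc2, the gene of the other core protein, was read at 174 to 416 CPM in the same libraries. Of all 77 genes, 15 are uncertain because a gene on the same strand overlaps them (11) or a named pseudogene could share their reads (4). Between subsets, 38 of the 75 tested genes passed the threshold in at least 1 of 6 comparisons (28 nuclear and all 10 mitochondrial), as 45.6% of all tested genes did, and 37 passed in none.

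As summed levels, the 2 genomes gave different orders of the subsets. Summed over the 10 mitochondrially encoded genes, the level was highest in pDC, with 28577, 29366 and 16196 CPM in pDC KO and 20004, 24775 and 27679 CPM in pDC WT. It was lower in cDC2, at 8147, 9431 and 9489 CPM in KO and 13424 and 10406 CPM in WT, and stood at 13727 and 16052 CPM in cDC1 KO and 14337 and 16924 CPM in cDC1 WT. No cDC2 library reached a pDC library, and pDC KO 3, the lowest of the pDC libraries, lay within the range of cDC1. The largest part of the sum in each pDC and cDC1 library was mt-Atp6. It stood at 12246, 15116 and 5514 CPM in pDC KO and 7266, 12797 and 12776 CPM in pDC WT. In cDC1 it stood at 5117 and 6153 CPM in KO and 5036 and 6602 CPM in WT. The order of pDC over cDC1 in the sums does not hold for each gene: mt-Cytb was not higher in pDC WT than in cDC1 WT.

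The 67 nuclear genes, summed, stood at 6154, 6109 and 4968 CPM in pDC KO, 5001, 6633 and 4568 CPM in pDC WT, 5447, 6133 and 6975 CPM in cDC2 KO and 4958 and 4371 CPM in cDC2 WT. They were highest in cDC1, at 7344 and 7849.8 CPM in KO and 7768 and 7263 CPM in WT. Every cDC1 library lay above every pDC and cDC2 library, and the pDC and cDC2 ranges overlapped. Counts of mitochondrial messages per count of nuclear messages were 4.64, 4.81 and 3.26 in pDC KO and 3.9998, 3.74 and 6.06 in pDC WT, against 1.496, 1.54 and 1.36 in cDC2 KO, 2.71 and 2.38 in cDC2 WT, 1.87 and 2.04 in cDC1 KO and 1.85 and 2.33 in cDC1 WT. In bulk samples such as these, fewer cells with a message and less message per cell cannot be told apart.

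**Figure D1:**
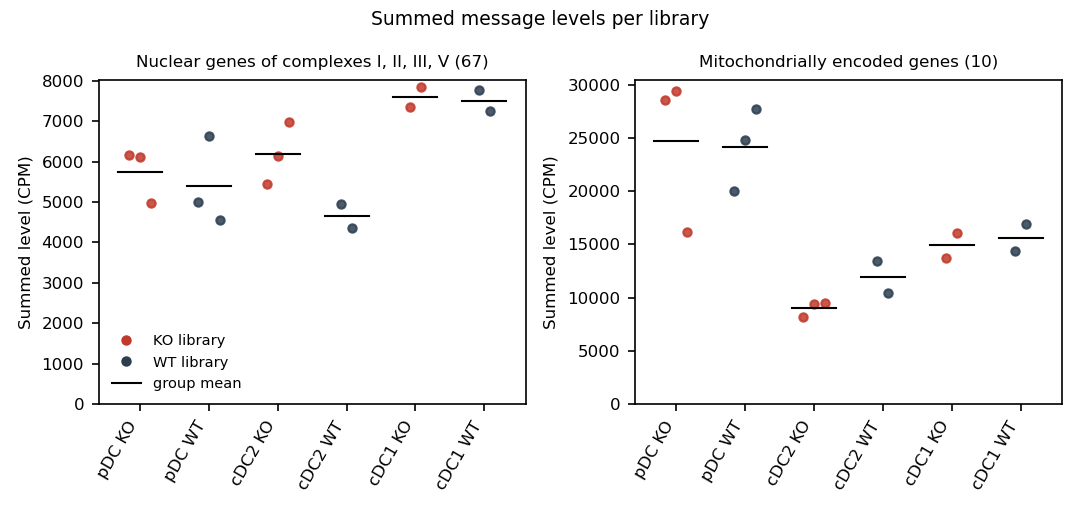
Summed level in CPM of the 67 nuclear genes (left) and the 10 mitochondrially encoded genes (right) of complexes I, II, III and V, 1 point per library and a line at the group mean, for pDC, cDC2 and cDC1 of KO (red) and WT (dark) mice. The mitochondrial sums are highest in pDC and the nuclear sums are highest in cDC1.

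Between KO pDC and KO cDC2, 9 of the 10 mitochondrially encoded genes were higher in pDC, where 10.9% of all tested genes were higher and 14.9% lower (25.9% in either direction). Their median log2 difference was 1.496, beside -0.08 for all tested genes. mt-Nd4, a core proton-pumping subunit of complex I, stood at 4572, 3585 and 3136 CPM in pDC KO against 1178, 1219 and 1263 CPM in cDC2 KO. The groups did not overlap, and the log2 difference was 1.63 ± 0.25 (adjusted p = 9.04e-05). mt-Cytb, cytochrome b, the only mitochondrially encoded part of complex III, stood at 2168, 1815 and 1315 CPM in pDC KO against 783, 784 and 884 CPM in cDC2 KO, again without overlap, a log2 difference of 1.11 ± 0.23 (adjusted p = 0.00132).

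mt-Atp6, the subunit of ATP synthase that forms the proton path, stood at 12246, 15116 and 5514 CPM in pDC KO against 3498, 3529 and 4219.6 CPM in cDC2 KO, a log2 difference of 1.55 ± 0.32 (adjusted p = 0.00141). For the other complex I genes the log2 differences were 1.05 ± 0.24 for mt-Nd1 (adjusted p = 0.00294), 1.44 ± 0.36 for mt-Nd2 (0.00566), 1.41 ± 0.26 for mt-Nd3 (0.000542), 1.85 ± 0.44 for mt-Nd4l (0.00492) and 1.73 ± 0.46 for mt-Nd5 (0.0107). For mt-Atp8, the small partner of mt-Atp6 whose reading frame overlaps it, the difference was 1.83 ± 0.43 (0.00401). In all 9, every pDC KO library lay above every cDC2 KO library, as 18.6% of all tested genes did. The exception was mt-Nd6, at 9.90, 15.1 and 17.7 CPM in pDC KO against 11.8, 10.8 and 27.7 CPM in cDC2 KO, a log2 difference of -0.23 ± 0.58 (adjusted p = 0.818). mt-Nd6 (chrM:13552-14070, minus strand) is the 1 protein gene on the other strand of mitochondrial DNA, and its end overlaps that of mt-Nd5 (chrM:11742-13565, plus strand); the labels call the libraries strand-specific, and whether the counting used strand is not given in the sources used here. Of the 12 subunit genes past the threshold in this comparison, nuclear ones included, 5 are left without the 15 uncertain genes, 6 of which are mitochondrial.

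Between WT pDC and WT cDC2, which share no library with the KO comparison but share its scaling and spread estimate, 5 mitochondrial genes were higher in pDC, beside 11.4% of all tested genes higher and 12.2% lower. mt-Cytb stood at 1524, 1632 and 1578 CPM in pDC WT against 626 and 718 CPM in cDC2 WT, a log2 difference of 1.23 ± 0.26 (adjusted p = 0.0022). mt-Nd1 (0.99 ± 0.27, adjusted p = 0.0127), mt-Nd3 (1.21 ± 0.30, 0.00633), mt-Nd4 (1.10 ± 0.28, 0.00867) and mt-Atp6 (1.53 ± 0.37, 0.00535) were the others, and in each of the 5 the pDC WT libraries lay above the cDC2 WT libraries. The same 5 were among the 9 of the KO comparison. The other 5 did not pass, and their groups overlapped.

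Several of those 5 differed widely between the cDC2 WT libraries. mt-Nd2 stood at 2398, 2439.9 and 4391 CPM in pDC WT against 3503 and 1889.8 CPM in cDC2 WT, and at 756, 1526 and 835 CPM in cDC2 KO. mt-Nd5 stood at 536, 738 and 892 CPM in pDC WT against 977 and 369 CPM in cDC2 WT, and mt-Nd4l at 539, 292 and 345 CPM in pDC WT against 589 and 249.7 CPM in cDC2 WT. cDC2 WT 1 was the higher of the pair for mt-Nd2, mt-Nd4l, mt-Nd5 and mt-Atp8, and cDC2 WT 2 for mt-Nd6.

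Set against mt-Cytb in the same library, some mitochondrial messages varied more than others. Counts of mt-Nd1 per count of mt-Cytb were 1.53, 1.27 and 1.57 in pDC KO, 1.49, 1.38 and 1.52 in pDC WT, 1.49, 1.63 and 1.44 in cDC2 KO, 2.20 and 1.31 in cDC2 WT, 1.54 and 1.55 in cDC1 KO and 1.48 and 1.47 in cDC1 WT, so that only cDC2 WT 1 exceeded 2. Counts of mt-Nd2 per count of mt-Cytb were 1.23, 1.95 and 1.74 in pDC KO, 1.57, 1.495 and 2.78 in pDC WT, 0.966, 1.95 and 0.945 in cDC2 KO, 5.60 and 2.63 in cDC2 WT, 1.52 and 1.56 in cDC1 KO and 0.66 and 1.34 in cDC1 WT. The cDC2 WT libraries thus had more mt-Nd2 per mt-Cytb than the 3 cDC2 KO libraries, and for mt-Nd5 the ratios were 0.143, 0.428 and 0.218 in cDC2 KO against 1.56 and 0.514 in cDC2 WT. Levels in these cDC2 WT libraries went with transcript length, as they did in pDC WT 1 and pDC WT 3 (correlations of 0.131 and 0.180). The part of that in the ratios was not tested. For mt-Nd3 the ratio stayed between 0.546 and 0.872 in all 15 libraries.

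**Figure D2:**
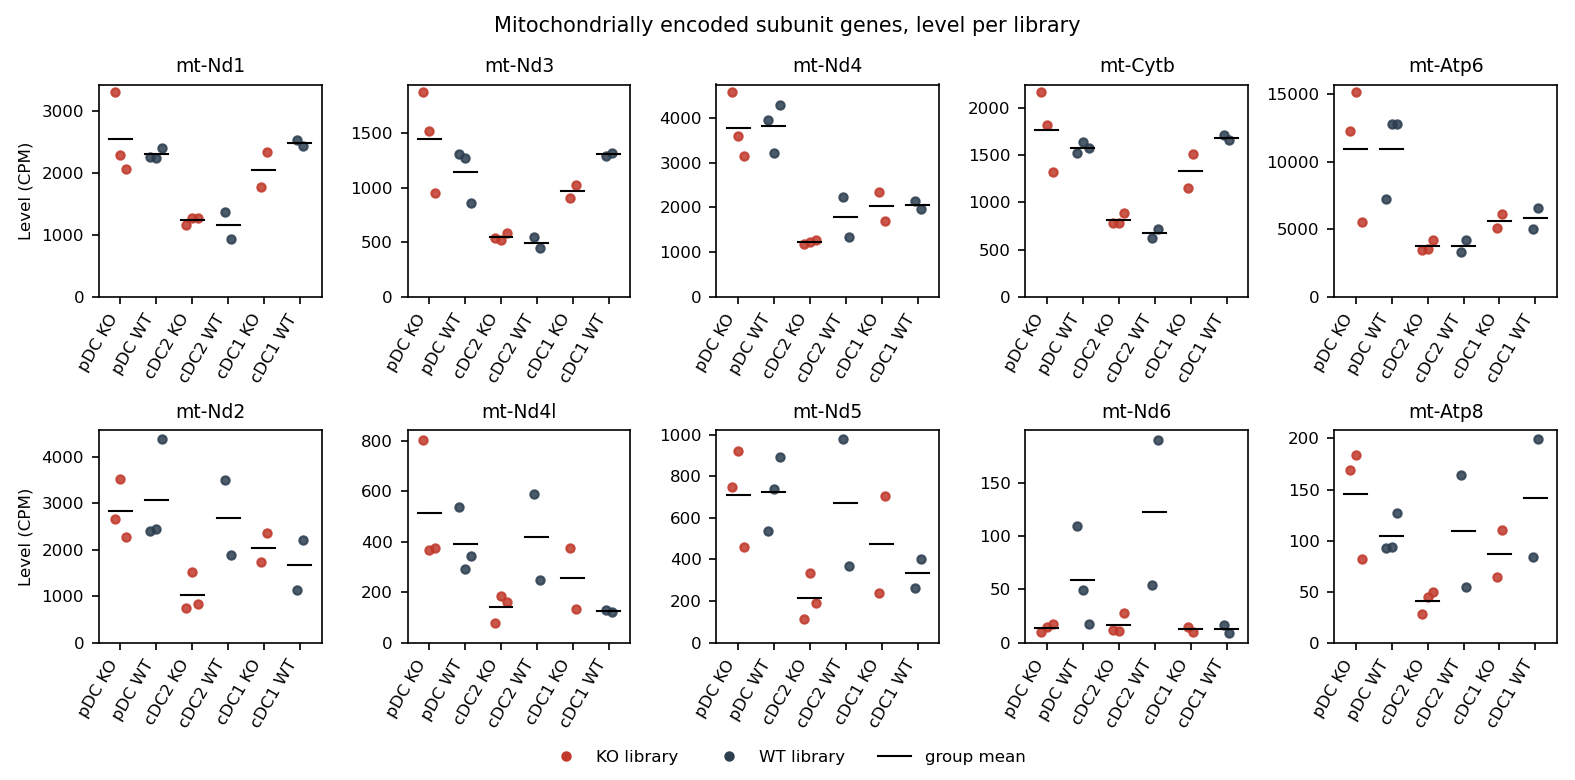
Level in CPM of each of the 10 mitochondrially encoded genes, 1 point per library and a line at the group mean, for pDC, cDC2 and cDC1 of KO (red) and WT (dark) mice. mt-Nd1, mt-Nd3, mt-Nd4, mt-Cytb and mt-Atp6 lie higher in pDC than in cDC2 in both genotypes, and the 2 cDC2 WT libraries spread widely for the genes of the lower row.

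Against cDC1, fewer mitochondrial genes stood out in pDC. In KO mice mt-Nd4 passed, at 4572, 3585 and 3136 CPM in pDC KO against 2352 and 1689.6 CPM in cDC1 KO (log2 difference 0.90 ± 0.28, adjusted p = 0.0279), where 9.08% of all tested genes were higher. In WT mice 3 passed, where 12.8% of all tested genes were higher. mt-Nd4 stood at 3958, 3215 and 4285 CPM in pDC WT against 2135 and 1963 CPM in cDC1 WT (0.90 ± 0.28, adjusted p = 0.0235). The others were mt-Nd4l (1.64 ± 0.51, 0.0243) and mt-Nd6 (2.20 ± 0.71, 0.0293), and with cDC1 WT 1 or cDC1 WT 2 left out none of the 3 passed. mt-Cytb missed the threshold between pDC and cDC1, with log2 differences of 0.41 ± 0.25 in KO (adjusted p = 0.284) and -0.09 ± 0.25 in WT (0.824).

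Between WT cDC2 and WT cDC1, mt-Cytb (-1.32 ± 0.28, adjusted p = 0.00873), mt-Nd3 (-1.40 ± 0.32, 0.0125) and mt-Nd1 (-1.10 ± 0.29, 0.0264) were lower in cDC2, beside 4.98% of all tested genes lower. mt-Nd6 was higher in cDC2, at 54.1 and 189.8 CPM in cDC2 WT against 16.6 and 9.10 CPM in cDC1 WT (3.25 ± 0.77, adjusted p = 0.0165), beside 3.75% of all tested genes higher. In KO mice none of the 10 passed between cDC2 and cDC1, where 1.27% of all tested genes did, and 7 were lower at an unadjusted p below 0.05, with a median of -0.78 over the 10 beside -0.02 for all tested genes.

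The comparisons of pDC and of cDC2 with cDC1 in WT mice had the most nuclear genes past the threshold. Between WT pDC and WT cDC1, 15 of 65 tested nuclear genes were lower in pDC and 0 were higher, beside 14.8% of all tested genes lower and 12.8% higher. The median log2 difference was -0.60, beside -0.05 for all tested genes, and 54 of 65 were negative. By complex, 9 of 36 tested genes of complex I, 1 of 4 of complex II, 1 of 8 of complex III and 4 of 17 of ATP synthase were lower, with medians of -0.57, -0.58, -0.60 and -0.61. With the mitochondrial genes, 18 of 75 passed in either direction, a share no higher than the 27.7% of all tested genes. Without cDC1 WT 1 the count of 18 was 7, and the share of all tested genes was 13.6%.

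The libraries of this comparison also differed in make-up. At equal depth pDC WT held 10978 to 11225 genes against 12588 to 12642 in cDC1 WT, and the correlation of level with transcript length was 0.0377 to 0.180 in pDC WT against -0.226 to -0.150 in cDC1 WT. With offsets for transcript length and GC content in the test, 7 nuclear genes were lower and 1 higher while 24.8% of all tested genes passed in either direction, 39 of 65 were negative, and the nuclear median was -0.17 beside -0.06 for all tested genes. Sdhb and Cyc1, described below, were among the genes that did not pass with the offsets. Atp5g1, Atp5f1, Ndufs6, Ndufb2 and Ndufb8 passed under every alternative tried, offsets and left-out libraries included.

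Among the ATP synthase genes, Atp5g1 (chr11:96068852-96075670, minus strand) encodes subunit c, the rotating ring of the membrane motor, which is made from 3 nuclear genes with the same mature protein. It stood at 2.60, 6.19 and 4.08 CPM in pDC WT against 22.7 and 18.0 CPM in cDC1 WT, with no overlap. The log2 difference was -2.24 ± 0.46 (adjusted p = 0.00131). The other subunit c genes did not pass: Atp5g3 had 98.4, 124 and 68.7 CPM in pDC WT against 176 and 153 CPM in cDC1 WT (-0.76 ± 0.28, adjusted p = 0.0512), and Atp5g2 was read at 0 to 5.28 CPM over the 15 libraries. Atp5f1 (chr3:105942698-105960099, minus strand), the b subunit of the stalk that holds the motor still, stood at 68.6, 80.1 and 72.3 CPM in pDC WT against 163 and 167 CPM in cDC1 WT (-1.16 ± 0.27, adjusted p = 0.00398).

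In complex I the genes with the smallest p were accessory subunits. Ndufs6 (chr13:73319838-73328542, minus strand), a zinc-binding subunit next to the NADH-oxidising arm, stood at 26.3, 26.6 and 17.2 CPM in pDC WT against 52.5 and 70.1 CPM in cDC1 WT (-1.39 ± 0.31, adjusted p = 0.00259). Ndufb8 (chr19:44548572-44555440, minus strand), of the membrane arm, stood at 24.7, 21.8 and 4.31 CPM in pDC WT against 76.4 and 68.1 CPM in cDC1 WT (-2.09 ± 0.48, adjusted p = 0.00339), and a gene on the same strand overlaps it. Neither pair of groups overlapped, and pDC WT 3 was the lowest library for both genes. Ndufb2 (-1.61 ± 0.36, 0.00286), Ndufa3 (-1.32 ± 0.30, 0.00294) and Ndufa4 (-1.22 ± 0.28, 0.00317), the last of which is now placed in complex IV by structural work, were the others among the 6 with the smallest p.

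In complex II, Sdhb (chr4:140961203-140979193, plus strand), the iron-sulfur subunit, stood at 37.4, 47.1 and 34.0 CPM in pDC WT against 104 and 74.1 CPM in cDC1 WT (-1.17 ± 0.29, adjusted p = 0.0052). Sdha, the flavoprotein that oxidises succinate, stood at 89.7, 79.2 and 64.3 CPM in pDC WT against 81.6 and 91.0 CPM in cDC1 WT (-0.15 ± 0.29), and the membrane anchors Sdhc and Sdhd had differences of 0.23 ± 0.30 and -1.02 ± 0.45; none of the 3 passed (adjusted p = 0.738, 0.622 and 0.105). In complex III, Cyc1, cytochrome c1, stood at 32.7, 24.0 and 19.5 CPM in pDC WT against 67.1 and 55.3 CPM in cDC1 WT, with no overlap and a log2 difference of -1.27 ± 0.34 (adjusted p = 0.00902).

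Between WT cDC2 and WT cDC1, 15 of 65 nuclear genes were again lower and 0 higher, beside 4.98% of all tested genes lower and 3.75% higher, and 59 of 65 were negative, with a median of -0.84 beside -0.05 for all tested genes. This comparison shares its cDC1 WT libraries with the one just given. Ndufb11 (chrX:20615326-20617619, minus strand), an X-linked membrane-arm subunit of complex I, stood at 34.5 and 36.0 CPM in cDC2 WT against 128 and 104 CPM in cDC1 WT (-1.71 ± 0.31, adjusted p = 0.00395). Atp5f1 stood at 68.5 and 52.1 CPM in cDC2 WT (-1.45 ± 0.31, adjusted p = 0.009) and Cyc1 at 18.0 and 19.6 CPM (-1.70 ± 0.39, 0.0122).

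Ndufa3 (-1.55 ± 0.34, adjusted p = 0.0102) and Sdhb (-1.35 ± 0.32, 0.0163) were also lower in WT cDC2 than in WT cDC1, and 4 of 8 tested genes of complex III were. Atp5b, the catalytic beta subunit of ATP synthase, stood at 346 and 368 CPM in cDC2 WT against 642 and 775 CPM in cDC1 WT and missed the threshold (-0.99 ± 0.32, adjusted p = 0.0608). The 19 genes past the threshold, mitochondrial ones included, stood beside 8.73% of all tested genes. The count was 1 without cDC1 WT 1, 7 without cDC1 WT 2, 7 without cDC2 WT 1 and 6 without cDC2 WT 2, beside 2.03%, 2.73%, 5.98% and 4.64% of all tested genes. It was 0 when only these 4 libraries were fitted, beside 1.0%, and 9 (5 nuclear and lower) with offsets for transcript length and GC content, beside 6.04%. The offsets brought the nuclear median to -0.47 beside -0.09 for all tested genes.

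Promoter windows from RefSeq (GRCm38.p6, 250 bases before to 50 after the start) were matched to 53 of the 67 nuclear genes. The binding motif of NRF1, a known activator of respiratory genes, was found on either strand in the windows of 16 of these genes (30.2%), against 5.19% of 27025 genes with a window. The ETS motif CCGGAAG was found in 13 (24.5%), against 9.93%, and the YY1 motif GCCATNTT in 15 (28.3%), against 6.96%. The 27025 genes are not limited to the 11746 tested here, so these shares do not compare the subunit genes with other expressed genes. Each motif was searched on its own, so a stretch that matches more than 1 counts for each. Shown here are 250 bases before and 30 after the start for Ndufs6, Sdhb, Ndufa3 and Ndufb11, with the motif in capitals; these 4 are examples that hold a motif, chosen after the matches were seen from the 15 nuclear genes that were lower in WT pDC than in WT cDC1. Of those 15 genes, 13 had a window and 8 held at least 1 of the motifs in the window nearest the annotated start. The shares above count any window of a gene and 1 motif at a time. No such share is given here for other genes, so the 8 do not set these genes apart. The capitals mark an NRF1 motif in Ndufs6, an ETS motif in Sdhb and a YY1 motif, read on the other strand, in Ndufa3 and Ndufb11. A match of letters is not a bound site.
Ndufs6 (chr13:73328453-73328732, minus strand): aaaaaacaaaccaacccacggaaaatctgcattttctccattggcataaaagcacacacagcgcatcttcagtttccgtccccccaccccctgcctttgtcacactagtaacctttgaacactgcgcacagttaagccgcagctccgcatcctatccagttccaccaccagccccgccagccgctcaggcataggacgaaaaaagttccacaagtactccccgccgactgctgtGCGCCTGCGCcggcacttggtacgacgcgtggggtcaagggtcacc
Sdhb (chr4:140961021-140961300, plus strand): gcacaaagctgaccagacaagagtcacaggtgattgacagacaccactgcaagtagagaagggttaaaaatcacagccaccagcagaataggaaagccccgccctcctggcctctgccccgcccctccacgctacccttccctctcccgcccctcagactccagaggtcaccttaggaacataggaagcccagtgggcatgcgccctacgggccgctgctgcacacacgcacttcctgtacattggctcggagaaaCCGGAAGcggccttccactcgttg
Ndufa3 (chr7:3617123-3617402, plus strand): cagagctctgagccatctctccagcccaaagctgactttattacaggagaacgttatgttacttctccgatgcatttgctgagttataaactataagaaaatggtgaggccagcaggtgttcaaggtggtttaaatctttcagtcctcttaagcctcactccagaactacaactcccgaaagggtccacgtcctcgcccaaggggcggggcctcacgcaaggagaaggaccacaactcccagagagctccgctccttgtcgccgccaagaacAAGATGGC
Ndufb11 (chrX:20617590-20617869, minus strand): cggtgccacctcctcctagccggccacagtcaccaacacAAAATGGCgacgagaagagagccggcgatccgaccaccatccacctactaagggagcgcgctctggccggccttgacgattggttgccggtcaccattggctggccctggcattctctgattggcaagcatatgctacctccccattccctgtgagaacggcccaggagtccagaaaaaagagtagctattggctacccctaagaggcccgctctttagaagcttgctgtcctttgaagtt

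**Figure D3:**
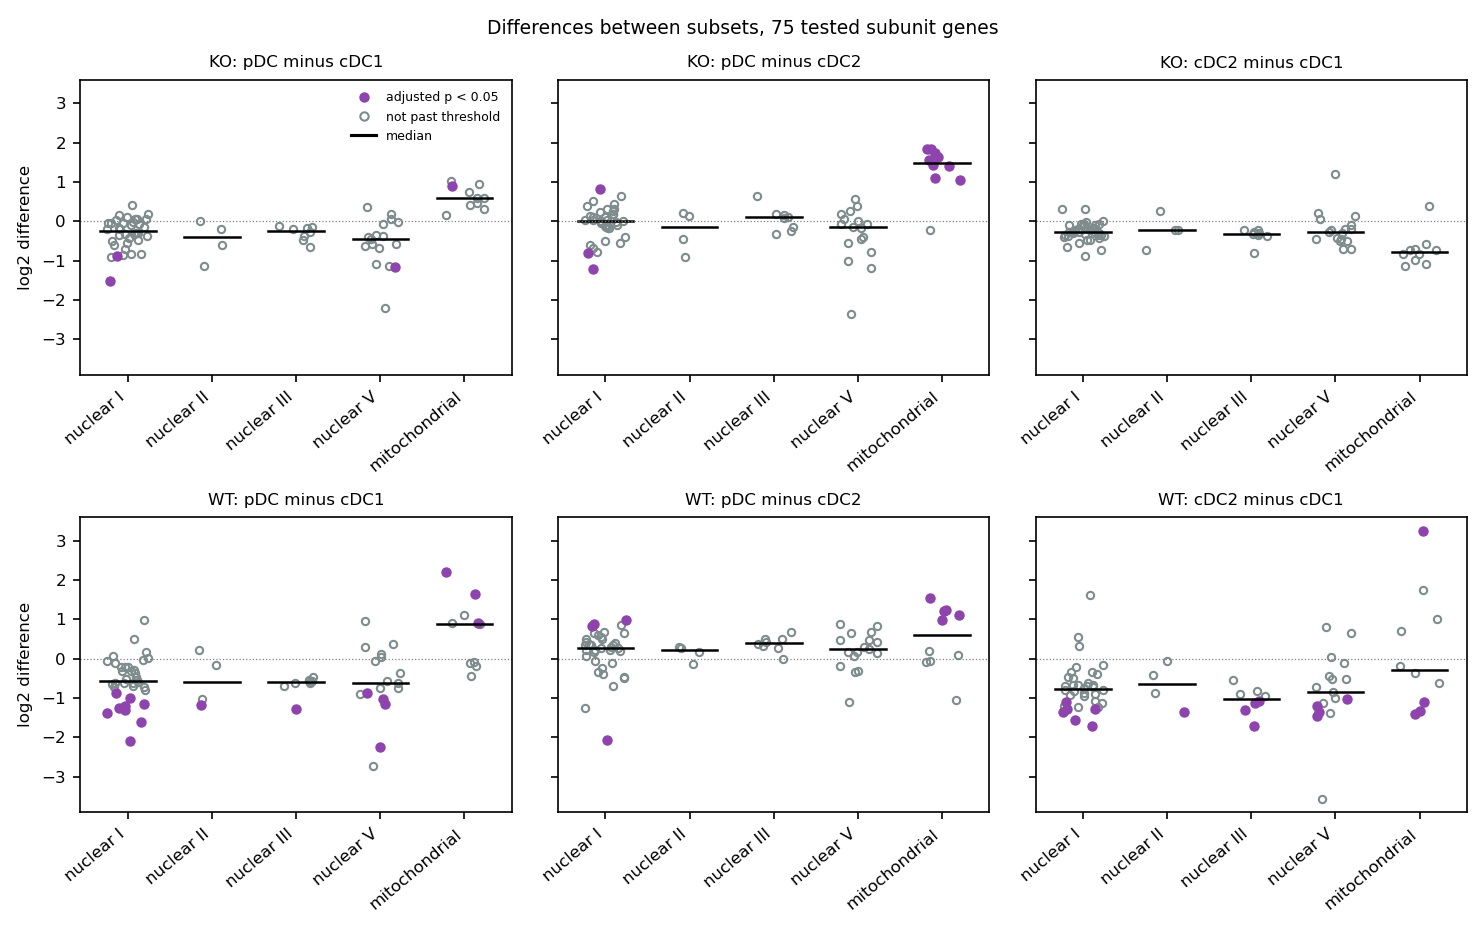
Log2 difference of each of 75 tested subunit genes between subsets, in KO mice (upper row) and WT mice (lower row), for the nuclear genes of complexes I, II, III and V and for the mitochondrially encoded genes. Filled points passed an adjusted p of 0.05 and lines are medians. Nuclear genes lie mostly below 0 in the comparisons with cDC1, and 9 of 10 mitochondrial genes lie above 0 between KO pDC and KO cDC2.

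Between WT pDC and WT cDC2 the nuclear genes gave few calls. Ndufb11 (0.83 ± 0.29, adjusted p = 0.0434) and Ndufs5 (0.87 ± 0.29, 0.0338), both accessory subunits of complex I, were higher in pDC, as was Ndufs3 (0.99 ± 0.35, 0.0475), a core subunit. Ndufb11 and Ndufs3 are named here to complete the count, a choice made after their values were seen. Of the 25 alternatives run for this comparison, the calls of Ndufb11 and Ndufs3 were lost under 17 each, limma voom and RLE scaling among them, and that of Ndufs5 under 9. The median over 65 nuclear genes was 0.28, beside 0.07 for all tested genes. Ndufc2, another complex I subunit, was lower in pDC (-2.08 ± 0.58, 0.0157), with groups that overlapped: it stood at 47.4, 88.6 and 72.0 CPM in pDC WT against 507 and 79.7 CPM in cDC2 WT. Of the 9 genes past the threshold in this comparison, mitochondrial ones included, beside 23.6% of all tested genes, the count was 4 without cDC2 WT 1, 5 without cDC2 WT 2, 4 when only these 5 libraries were fitted and 5 with limma voom, beside 17.5%, 17.0%, 14.5% and 16.0% of all tested genes.

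In KO mice fewer nuclear genes passed; the tests of whether the subset differences themselves differ between the genotypes stand with the genotype results. Between KO pDC and KO cDC1, Ndufb8 stood at 26.4, 27.4 and 21.9 CPM in pDC KO against 68.0 and 75.5 CPM in cDC1 KO (-1.51 ± 0.48, adjusted p = 0.0299). Ndufb7, another membrane-arm subunit (-0.87 ± 0.29, 0.0384), and Atp5o, the subunit that joins the stalk to the catalytic head (-1.16 ± 0.39, 0.0417), were also lower, beside 12.4% of all tested genes lower. Of 26 alternatives, the call was lost under 6 for Ndufb8, 11 for Ndufb7 and 10 for Atp5o. The nuclear median was -0.31 beside -0.09, and 53 of 65 were negative; with offsets for transcript length and GC content it was -0.14 beside -0.10. With mt-Nd4, 4 subunit genes passed in this comparison, beside 21.5% of all tested genes. The count was 0 without cDC1 KO 1 and 1 without cDC1 KO 2, beside 11.5% and 11.1% of all tested genes. It was 2 without cDC2 KO 2 (20.0%), 2 without cDC1 WT 1 (18.8%), 1 without pDC KO 2 (17.7%) and 2 without pDC KO 3 (18.7%). Of the 4, all but Ndufb7 are uncertain genes, and limma voom called 9 genes in this comparison, beside 31.5% of all tested genes.

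Between KO pDC and KO cDC2, Ndufb8 stood at 26.4, 27.4 and 21.9 CPM in pDC KO against 54.8, 56.1 and 64.6 CPM in cDC2 KO (-1.21 ± 0.44, adjusted p = 0.0494), and Ndufb7 was lower too (-0.79 ± 0.26, 0.0336). The call was lost under 16 of 26 alternatives for Ndufb8 and under 5 for Ndufb7. Ndufb11 was higher in pDC, at 102, 89.97 and 85.8 CPM in pDC KO against 45.9, 54.5 and 57.2 CPM in cDC2 KO (0.82 ± 0.25, adjusted p = 0.0221), a call lost under 4 of 26 alternatives. It was the 1 nuclear gene past the threshold in pDC over cDC2 in both genotypes, and its WT call was lost under 17 of 25. The genes past the threshold in the same direction in both genotypes were 6, which is 50.0% of the 12 in KO and 66.7% of the 9 in WT. Of all tested genes 16.3% passed in the same direction in both, which is 63.1% of those called in KO and 69.2% of those called in WT. The nuclear median was 0.01. Between KO cDC2 and KO cDC1 edgeR called 0 of the 75 genes, beside 1.27% of all tested genes; DESeq2 called 1 and limma voom 8, beside 2.87% and 6.86%, and at an unadjusted p below 0.05 the count was 10, all lower in cDC2 (3 nuclear), beside 8.76% of all tested genes. There 57 of 65 nuclear genes were negative, with a median of -0.27.

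**Figure D4:**
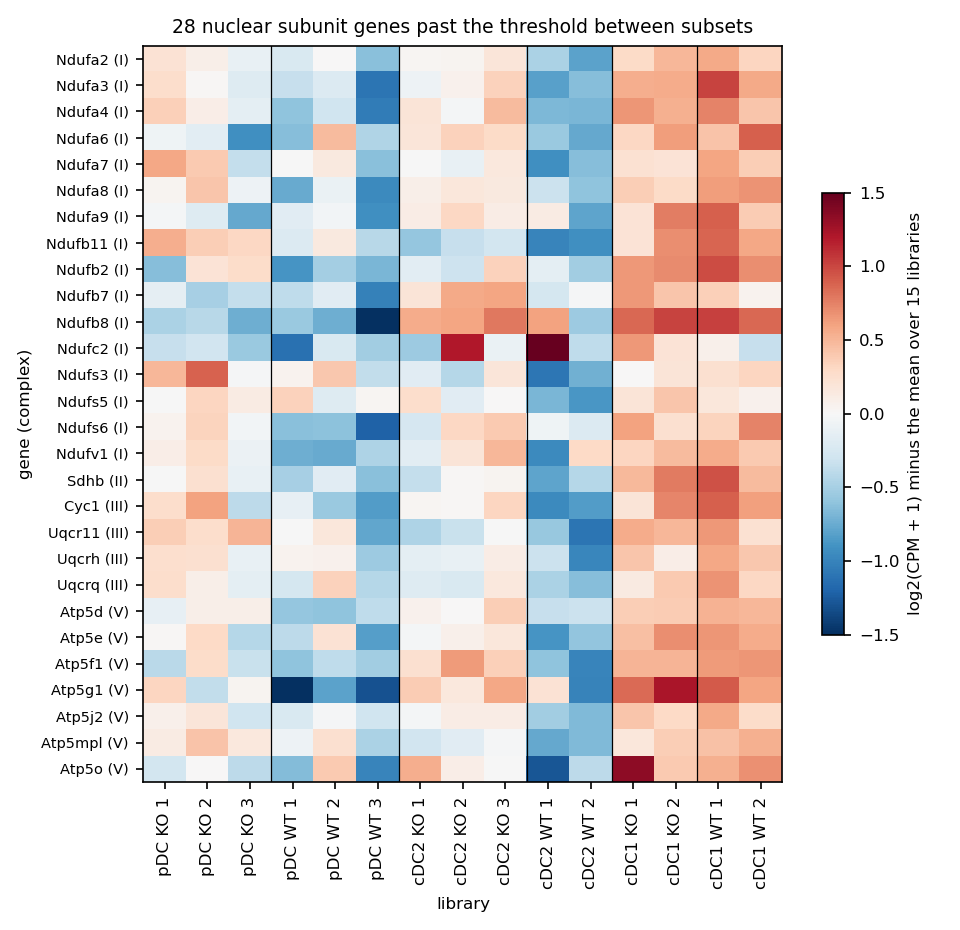
Level of the 28 nuclear genes that passed the threshold in at least 1 comparison between subsets, as log2(CPM + 1) minus the gene's mean over 15 libraries, with colours ending at 1.5 on either side of 0. Columns are libraries of pDC, cDC2 and cDC1 with KO left of WT, and rows are genes with their complex. The 4 cDC1 libraries are above the mean for most genes.

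None of the 75 genes passed the threshold between KO and WT mice in any subset. edgeR called 0 in pDC, 0 in cDC2 and 0 in cDC1, beside 0.0681%, 0.119% and 0.0255% of all tested genes, and 0 for the average over the 3 subsets, beside 0.306%. limma voom also called 0 in each, beside 0.0511% in pDC, 0.0% in cDC2, 0.0681% in cDC1 and 0.281% for the average. DESeq2 called 1 gene in pDC, 5 in cDC2, 0 in cDC1 and 1 for the average, beside 1.17%, 1.87%, 0.153% and 1.13% of all tested genes. edgeR without a filter on low counts gave the counts 1, 5, 0 and 1, beside 1.25%, 1.09%, 0.172% and 1.02%. The tests of the difference between genotype effects called 0 genes between any pair of subsets, beside 0.0% of all tested genes for pDC minus cDC1 and for pDC minus cDC2 and 0.00851% for cDC2 minus cDC1. DESeq2 also called 0 there, beside 0.775%, 0.306% and 0.358%, and limma voom 0, beside 0.0596%, 0.0% and 0.00851%. edgeR without a filter called 0, 4 and 3 subunit genes, beside 0.724%, 0.54% and 0.233%. At an unadjusted p below 0.05 edgeR gave 4, 8 and 11 subunit genes, beside 8.26%, 8.41% and 8.46% of all tested genes.

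In cDC2 the median KO minus WT difference was positive for the nuclear genes and negative for the mitochondrial ones. Of 65 nuclear genes 57 were positive in KO minus WT, beside 55.3% of all tested genes, with a median of 0.53 beside 0.09. The medians were 0.52, 0.50, 0.54 and 0.57 for complexes I, II, III and ATP synthase. In 36 of 65, all 3 KO libraries lay above both WT libraries, as 23.1% of all tested genes did. At an unadjusted p below 0.05, 14 nuclear genes were higher in KO, beside 9.47% of all tested genes. With offsets for transcript length and GC content, the nuclear median was 0.24 beside 0.12. Fewer genes at equal depth and a positive relation to transcript length in both cDC2 WT libraries move with this comparison, and their part was not tested beyond those offsets.

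Atp5f1 had the smallest p of the nuclear genes in cDC2. It stood at 124, 163 and 135 CPM in cDC2 KO against 68.5 and 52.1 CPM in cDC2 WT, with no overlap, and its log2 difference of 1.22 ± 0.29 missed the threshold (adjusted p = 0.0796). Under DESeq2 it was the 1 nuclear gene called, at 1.12 ± 0.27 (adjusted p = 0.00685). Cyc1 stood at 36.5, 36.1 and 44.9 CPM in cDC2 KO against 18.0 and 19.6 CPM in cDC2 WT (1.06 ± 0.36, adjusted p = 0.225). Sdhb, at 41.4, 53.9 and 54.7 CPM in cDC2 KO against 30.4 and 39.3 CPM in cDC2 WT, also lay higher in each KO library, without passing (0.52 ± 0.30, adjusted p = 0.469).

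The mitochondrial genes in cDC2 had a median of -0.96, and 5 of 10 were lower in KO at an unadjusted p below 0.05, beside 3.85% of all tested genes. mt-Nd6 stood at 11.8, 10.8 and 27.7 CPM in cDC2 KO against 54.1 and 189.8 CPM in cDC2 WT, with a log2 difference of -2.87 ± 0.64 (adjusted p = 0.0695). mt-Nd2 stood at 756, 1526 and 835 CPM in cDC2 KO against 3503 and 1889.8 CPM in cDC2 WT (-1.38 ± 0.39, adjusted p = 0.15). mt-Nd5 (-1.65 ± 0.50, 0.178), mt-Nd4l (-1.55 ± 0.48, 0.184) and mt-Atp8 (-1.43 ± 0.46, 0.209) were the other 3.

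The other 5 mitochondrial genes in cDC2 had differences between -0.55 ± 0.27 for mt-Nd4 and 0.28 ± 0.25 for mt-Cytb. DESeq2 called mt-Nd2, mt-Nd4l, mt-Nd5 and mt-Nd6 lower in cDC2 KO, and edgeR without a filter called those 4 and mt-Atp8. edgeR without pDC WT 3 called mt-Nd6 (-2.92 ± 0.53, adjusted p = 0.0486), beside 0.222% of all tested genes. The mitochondrial median was -0.28 without cDC2 WT 1 and -1.27 without cDC2 WT 2.

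In pDC the nuclear genes had a median of 0.20 in KO minus WT, beside 0.00 for all tested genes, and 51 of 65 were positive, beside 49.0%. At an unadjusted p below 0.05, 10 were higher and 0 lower, beside 5.08% and 5.52% of all tested genes. Atp5g1 stood at 14.7, 8.75 and 11.9 CPM in pDC KO against 2.60, 6.19 and 4.08 CPM in pDC WT. The groups did not overlap, and the log2 difference was 1.45 ± 0.42 (adjusted p = 0.267). Ndufs6 stood at 43.0, 52.5 and 40.1 CPM in pDC KO against 26.3, 26.6 and 17.2 CPM in pDC WT, also without overlap (0.95 ± 0.28, adjusted p = 0.268). The nuclear median was 0.07 without pDC WT 3, the library lowest in several of these genes, 0.40 without pDC WT 2, and 0.06 with offsets for transcript length and GC content.

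mt-Nd6 stood at 9.90, 15.1 and 17.7 CPM in pDC KO against 109, 49.3 and 17.8 CPM in pDC WT (-2.05 ± 0.60, adjusted p = 0.267), with pDC WT 1 the highest library and pDC WT 3 close to the KO libraries. It was the 1 gene DESeq2 called in pDC (-2.04 ± 0.58, adjusted p = 0.0383). The other 9 mitochondrial genes ran between -0.12 ± 0.35 for mt-Nd2 and 0.47 ± 0.42 for mt-Atp8, and the median over the 10 was 0.08.

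In cDC1 no subunit gene had an unadjusted p below 0.05, beside 3.83% of all tested genes, and the medians were -0.04 for the nuclear and -0.03 for the mitochondrial genes. The 3 with the smallest p were mt-Nd4l (1.02 ± 0.53), mt-Nd3 (-0.43 ± 0.31) and mt-Atp8 (-0.70 ± 0.51), all with an adjusted p of 1 in edgeR's test. The difference of mt-Atp8 was 0.0659 without cDC1 WT 2. mt-Nd4l stood at 375 and 136 CPM in cDC1 KO against 129 and 123 CPM in cDC1 WT. With 2 libraries in each group, the test rests on the spread pooled over the 6 groups.

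Averaged over the subsets, mt-Nd6 (-1.64 ± 0.38, adjusted p = 0.105), Ndufa4 (0.56 ± 0.16, 0.222) and Atp5g1 (0.83 ± 0.27, 0.292) had the smallest p. Of the nuclear genes 57 of 65 were positive, with a median of 0.26 beside 0.05, and 56.2% of all tested genes were positive. At an unadjusted p below 0.05, 10 subunit genes were higher and 1 lower, beside 10.2% of all tested genes in either direction. The average contains the cDC2 libraries described above. mt-Nd6 averaged over the subsets passed in edgeR without pDC WT 3 (-1.82 ± 0.32, adjusted p = 0.0220), beside 0.299% of all tested genes.

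**Figure D5:**
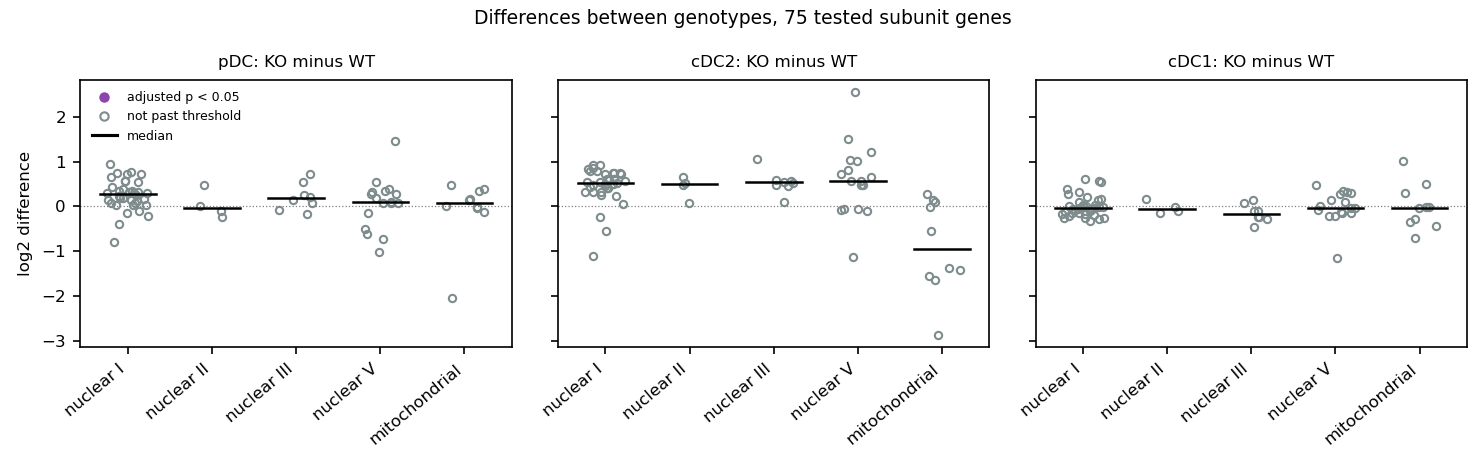
Log2 difference, KO minus WT, of each of 75 tested subunit genes in pDC, cDC2 and cDC1, for the nuclear genes of complexes I, II, III and V and for the mitochondrially encoded genes, with lines at the medians. No point passed an adjusted p of 0.05. In cDC2 the nuclear medians lie above 0 and the mitochondrial median lies below 0.

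From each complex the nuclear gene with the most tags is given as an example, which does not order the genes by abundance, since tags of different genes are not compared. These genes passed the threshold in no comparison. Ndufa10 of complex I averaged 219 ± 6.44 CPM in pDC KO and 236 ± 53.9 CPM in pDC WT (SD, n = 3 each), and 216 ± 47.3 CPM in cDC2 KO (n = 3) and 207 ± 35.9 CPM in cDC2 WT (n = 2). Its means in cDC1 were 270.2 ± 12.2 CPM in KO and 272 ± 45.0 CPM in WT (n = 2 each). Sdha of complex II averaged 78.8 ± 3.63 CPM in pDC KO and 77.7 ± 12.8 CPM in pDC WT, and Uqcrc2 of complex III averaged 241 ± 44.2 CPM in pDC KO and 269.8 ± 117 CPM in pDC WT. Atp5b of ATP synthase averaged 441 ± 143 CPM in pDC KO and 419.8 ± 24.4 CPM in pDC WT, against 710.4 ± 146 CPM in cDC1 KO and 708 ± 93.5 CPM in cDC1 WT, and its differences between pDC and cDC1 missed the threshold in KO (-0.69 ± 0.28, adjusted p = 0.0954) and WT (-0.75 ± 0.28, 0.0561).

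Genes next to these complexes in the pathway were read beside them. Of 13 tested nuclear genes of complex IV, cytochrome c oxidase, 1 was higher and 6 lower in WT pDC than in WT cDC1, beside 12.8% and 14.8% of all tested genes. The gene that was higher was Cox6a2, the isoform known from heart and skeletal muscle, at 448, 431 and 272 CPM in pDC WT against 1.17 and 0 CPM in cDC1 WT. Between WT cDC2 and WT cDC1, 1 of the 13 was higher and 5 lower, beside 3.75% and 4.98% of all tested genes. The mitochondrial messages mt-Co2 and mt-Co3 of complex IV were higher in pDC than in cDC2 in KO (0.91 ± 0.24 and 1.02 ± 0.23; adjusted p = 0.00878 and 0.00251) and in WT (0.97 ± 0.27 and 1.04 ± 0.26; 0.0153 and 0.00675). mt-Co1 did not pass in either.

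Cox6a2 was also the 1 gene of complex IV that passed between KO and WT mice. It stood at 32.97 and 33.7 CPM in cDC1 KO against 1.17 and 0 CPM in cDC1 WT (5.94 ± 0.71, adjusted p = 0.00167), beside 0.0255% of all tested genes, and it passed for the average over the subsets (3.19 ± 0.32, 3.82e-05), beside 0.306%. Without cDC1 WT 2, which had no count of it, the cDC1 difference was 4.81 ± 0.73 (adjusted p = 0.0493). Its levels were 1108, 1161 and 833 CPM in pDC KO against 448, 431 and 272 CPM in pDC WT (1.43 ± 0.38, adjusted p = 0.211), and 23.7, 24.7 and 28.2 CPM in cDC2 KO against 8.98 and 2.56 CPM in cDC2 WT (2.20 ± 0.50, 0.0693). The KO libraries lay above the WT libraries in each subset. Tests of the difference between the genotype effects missed the threshold for pDC minus cDC1 (-4.51 ± 0.82, adjusted p = 0.11) and for cDC2 minus cDC1 (-3.74 ± 0.89, 0.319). Cox6a2 is 1 of the 10 pDC markers used here, whose summed levels were 1177 and 1253 CPM in cDC1 KO against 1279 and 903 CPM in cDC1 WT. The other markers, named here to complete the list, went both ways in cDC1 KO minus WT. Klk1 (1.65 ± 0.91), Atp1b1 (1.45 ± 0.55), Spib (0.67 ± 0.34) and Siglech (0.65 ± 0.35) were positive. So were Runx2 (0.38 ± 0.40), Bst2 (0.06 ± 0.33) and Tcf4 (0.03 ± 0.25). Ly6d (-0.52 ± 0.39) and Ccr9 (-0.21 ± 0.50) were negative. None of these passed the threshold, and their part in the Cox6a2 difference was not tested.

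Of 31 tested assembly factors, 5 were higher and 2 lower in WT pDC than in WT cDC1, beside 12.8% and 14.8% of all tested genes, and 4 were higher and 4 lower in KO pDC than in KO cDC2, beside 10.9% and 14.9%. Atpaf1, which helps build the catalytic head of ATP synthase, was higher in pDC than in cDC1 in KO (1.62 ± 0.36, adjusted p = 0.00323) and WT (1.76 ± 0.37, 0.00163), at 24.9, 26.7 and 28.5 CPM in pDC KO and 29.7, 25.4 and 20.9 CPM in pDC WT against 9.94 and 7.44 CPM in cDC1 KO and 7.04 and 7.83 CPM in cDC1 WT. Atpif1, the inhibitor that blocks ATP synthase from running backwards, was lower in pDC than in cDC1 in KO (-2.35 ± 0.40, 0.000304) and WT (-1.80 ± 0.39, 0.00239).

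Of 17 tested genes of the tricarboxylic acid cycle, 0 were higher and 4 lower in WT pDC than in WT cDC1, beside 12.8% and 14.8% of all tested genes, and 0 and 4 in KO pDC than in KO cDC2, beside 10.9% and 14.9%. Cs, citrate synthase, stood at 45.3, 43.1 and 29.6 CPM in pDC WT against 109 and 110.5 CPM in cDC1 WT (-1.48 ± 0.29, adjusted p = 0.000932). Of 22 tested genes that control respiratory genes and mitochondrial DNA expression, 2 were higher and 2 lower in WT pDC than in WT cDC1, against the same 12.8% and 14.8% of all tested genes. Tfam, the factor that packages and transcribes mitochondrial DNA, stood at 73.1, 58.6 and 47.8 CPM in pDC WT against 16.6 and 37.7 CPM in cDC1 WT (1.13 ± 0.39, adjusted p = 0.0386). In pDC KO it stood at 36.9, 27.2 and 25.04 CPM against 49.8 and 26.3 CPM in cDC1 KO (-0.36 ± 0.37, 0.555). The test of the difference between genotypes missed the threshold (-1.49 ± 0.54, adjusted p = 0.431). Of 17 tested electron carrier genes, 2 were higher and 0 lower in WT pDC than in WT cDC1, again beside 12.8% and 14.8%, led by Coq5, a methyltransferase of ubiquinone synthesis (1.61 ± 0.33, 0.00149). Between KO and WT mice none of the genes of these 4 groups (assembly factors, tricarboxylic acid cycle, control genes and electron carriers) passed in pDC, cDC2 or cDC1, beside 0.0681%, 0.119% and 0.0255% of all tested genes. Between KO cDC2 and KO cDC1 none did, beside 1.27%.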

How the data were processed

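Thymic dendritic cell RNA was read as 3′ tags from oligo-dT barcoded libraries, per the labels' protocols. The authors deposited counts per gene that had not been normalized; mm10 as the build and, among tools, HTSeq, DESeq2 and STAR appear in the submitters' processing notes, without versions or roles. From the 22165 genes, those passing edgeR's expression filter (11746) were scaled by TMM and fitted with 1 model of 6 groups in edgeR 4.0.16 (R 4.3.3, limma 3.58.1), with quasi-likelihood tests and Benjamini-Hochberg adjustment over all of them. CPM use the same scaling. 3′ tags count a gene near its end, so levels of different genes are not compared, and libraries had no stated molecular identifiers, so limits from a count of 0 cover counting error only. Alternatives were RLE scaling, scaling without mitochondrial genes, DESeq2 1.42.0, limma voom with sample weights, other filters, no robust estimation, a replicate block, offsets for transcript length and GC content (mgcv 1.9.3), only the groups compared, and each library left out. Scripts were tested on simulated data. The members, gene lists and tests were chosen with earlier results of these data known. Genes named are all mitochondrial members, Sdha to Sdhd, Cyc1, the subunit c genes and Ndufa4l2, up to 6 per direction and comparison by p past the threshold, the 3 smallest p in each genotype comparison, the gene with the most tags in each complex, up to 3 of each other list, and Stk11; exceptions are marked. Replicate numbers were not used to pair samples. Figures used Python 3.11.15 and matplotlib 3.10.9.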

Additional observations from a re-analysis of the deposited data

How the results depend on the processing

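Each count of subunit genes past the threshold was recomputed under the alternatives, and 311 of 345 such counts stayed within 1.5 times the value reported. That total includes comparisons where edgeR called 0 genes, such as all those between KO and WT, and a 0 that stays 0 lies within the limit. It is thus no measure of how single calls held. Of 62 calls between subsets, 13 held under all 26 alternatives and 1 (mt-Cytb in WT pDC minus WT cDC2) under the 25 that could be run for it. The other 48 were lost under at least 1 alternative. With each library left out in turn, the count was 7 to 24 for WT pDC minus WT cDC1, 4 to 11 for WT pDC minus WT cDC2, 1 to 23 for WT cDC2 minus WT cDC1, 0 to 5 for KO pDC minus KO cDC1, 9 to 14 for KO pDC minus KO cDC2, 0 to 1 for KO minus WT in cDC2 and 0 to 1 for their average over subsets; where 1 library of a group of 2 was left out, the other was assumed to vary like the other groups. DESeq2 gave 5 for KO minus WT in cDC2, 1 in pDC, 1 for the average and 1 for KO cDC2 minus KO cDC1. limma voom gave 5 for WT pDC minus WT cDC2, 9 for KO pDC minus KO cDC1 and 8 for KO cDC2 minus KO cDC1. Without a filter the counts were 5 for KO minus WT in cDC2, 1 in pDC, 1 for the average, 1 for KO cDC2 minus KO cDC1, 4 for the KO effect in pDC minus that in cDC2 and 3 for cDC2 minus cDC1. Fitting only the groups compared gave 4 for WT pDC minus WT cDC2 and 0 for WT cDC2 minus WT cDC1, offsets for length and GC content gave 9 for the last of these, and without uncertain genes the counts were 1 for KO pDC minus KO cDC1 and 5 for KO pDC minus KO cDC2; the last change is by construction, and the cause of the others was not tested. In cDC1, mt-Atp8 ran between -1.20 and 0.0659 in KO minus WT with a library left out, the positive value without cDC1 WT 2. With the replicate number as a block, the count was 16 for WT pDC minus WT cDC1 and 6 for WT pDC minus WT cDC2. It was 18 for WT cDC2 minus WT cDC1, 1 for KO pDC minus KO cDC1 and 12 for KO pDC minus KO cDC2. Deviations of same-numbered samples from their group means correlated at -0.156 to 0.163 over 33 pairs, 4 of them over 0.1. A pair with different numbers, cDC2 KO 3 and cDC1 KO 2, reached 0.254. In a group of 2 libraries the deviations mirror each other, so these correlations cannot tell whether the number marks a pairing. Without both cDC2 WT libraries, an alternative chosen after seeing the data, 0 of the 34 calls that could be tested were lost. Those 34 come from comparisons that do not use cDC2 WT, so only the shared filter, scaling and spread changed. The calls that rest on cDC2 WT could not be tested in this way. With 2 or 3 libraries in a group, a difference that missed the threshold is not shown to be absent.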
